A study of Mus musculus with 16 samples.

Results

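The genes described are 10 members of the Notch pathway measured in mouse mammary tumour cells: the receptors Notch1, Notch2 and Notch3, the ligands Jag1 and Dll1, the fringe glycosyltransferases Mfng, Lfng and Rfng, and the target genes Hes1 and Hey1. They were chosen with earlier results of these data known, mainly for the level of Mfng in WB1P-Myc tumour cells, so that every level is given as a description without a test. All 10 were detected, among 19822 genes kept of 23467. Single-cell RNA was sequenced by Drop-seq from end-stage mammary tumours of FVB/n female mice that had received no treatment. The WB1P model was WapCre;Brca1F/F;Trp53F/F and the WB1P-Myc model was WapCre;Brca1F/F;Trp53F/F;Myc, with Myc carried as the conditional knock-in allele Col1a1invCAG-Myc-IRES-Luc, so both carried conditional alleles of Brca1 and Trp53 and the Wap-driven Cre that deletes them in mammary epithelium, and only the second carried the Myc allele. Tumours came from 2 mice per model, but the protocol in the labels describes 1 sample of live, sorted cells per model from which 4 droplet fractions were kept, and nothing ties a fraction to a mouse. The 4 numbered samples of each model are these fractions. The fractions therefore repeat the droplet step, the mice cannot be separated, and droplet run and model cannot be told apart.

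Notch receptors are cell-surface proteins that are cut after they bind a Jagged or Delta-like ligand on a neighbouring cell. The freed intracellular part joins the DNA-binding protein RBPJ and switches on target genes, of which the Hes and Hey repressors are the best known. Fringe enzymes extend the O-fucose sugars on the receptor in the Golgi and thereby change which ligands it answers to. In the mammary gland, Notch signalling is known for its role in luminal cell fate, and in blood vessels for the choice between tip and stalk cells.

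A total of 4798 barcodes passed the filters, 1307 from WB1P and 3491 from WB1P-Myc, with a median of 1724 and 2358 UMIs (unique molecular identifiers, each standing for 1 captured RNA molecule). WB1P fraction 1 stood apart with 65 cells, against 394 to 426 in the other WB1P fractions and 756 to 950 in those of WB1P-Myc. It held 60 tumour-class cells but 2 fibroblast-like and 2 macrophage-like cells, so its values in those classes are not printed. Pairs of HiSeq libraries shared 0 or 1 barcodes. The HiSeq and MiSeq tables of a fraction shared only 2 to 11 of their 1000 barcodes (59 in all), and whether the MiSeq tables list other cells or the same cells under other barcodes was not settled. Cells were clustered without the 48 detected genes of a 49-gene Notch list, and clusters were named from marker lists. The tumour class joined the epithelial-like and Schwann-like clusters and held 672 WB1P and 2186 WB1P-Myc cells, of which 1053 WB1P-Myc cells and no WB1P cell were Schwann-like. Summed epithelial markers reached 6077 UMIs per 1000000 (CPM) in the WB1P tumour class and 1421 CPM in that of WB1P-Myc, and Schwann markers 185 and 2699.5 CPM, so the class differed in makeup between the models. The macrophage-like class also held lymphocytes, since at a finer resolution 16 WB1P and 78 WB1P-Myc cells formed a T or NK-like cluster beside 980 macrophage-like cells. A cluster of 264 WB1P-Myc cells led by Slc38a4, Dlk1 and Crabp1 had too few markers for a name and was kept out of the tumour class. Myc itself was 151 CPM in the WB1P-Myc and 67.2 CPM in the WB1P tumour class, or 2.25-fold higher. Trp53 (18.9 and 7.85 CPM, 2.40-fold) and Brca1 (16.9 and 5.40 CPM, 3.13-fold) were also higher, the latter with overlapping fractions. The Myc level therefore does not single out the Myc allele, whose part in the Myc UMIs was not tested. Counts from the 3' end do not report the deleted exons of Brca1 and Trp53.

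Levels are given in CPM, the UMIs of a gene summed within a class and divided by all UMIs of that class, times 1000000. Because each molecule is counted once at its 3' end, these levels do not scale with transcript length, although capture may differ between genes. Brackets give 95% exact Poisson or binomial intervals, which cover counting error only. A gene was called higher or lower in WB1P-Myc where the pooled ratio was at least 2-fold, both models together held at least 20 UMIs and the 4 fractions of one model all lay beyond the 4 of the other. In the tumour class this call was met upwards by 14.4% and downwards by 8.7% of 12880 genes.

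Among the 10 genes, 3 were called higher in the WB1P-Myc tumour class (Mfng, Rfng and Hey1), 4 lower (Notch2, Jag1, Dll1 and Hes1) and 3 neither (Notch1, Notch3 and Lfng). Mfng had the highest level of the 3 fringe genes in WB1P-Myc tumour cells, at 95.03 CPM, and was not detected in those of WB1P. Hes1 was the most abundant of the 10 genes in the WB1P tumour class, where it was 4.09 times higher than in WB1P-Myc. In WB1P-Myc, Hes1 (112 CPM) and Mfng had the highest pooled levels, and Mfng was the higher of them in fraction 1, in epithelial-like cells alone (192 and 134 CPM) and in the MiSeq tables (110 and 103 CPM). Because only WB1P-Myc held Schwann-like cells, the ratios were also taken over epithelial-like cells alone, although these too fell in different clusters by model, 653 of the 672 WB1P cells in one and 1126 of the 1133 WB1P-Myc cells in another. There the log2 ratio of Dll1 was -1.30 (12.8 and 5.19 CPM) and that of Notch3 -2.48, and Notch2 (-0.62) and Hey1 (0.96) were no longer called. The cluster of the 1126 WB1P-Myc cells had no epithelial marker among its 10 top genes. Yet 8 of the list were in at least 10% of its cells and at least 2-fold higher there. At a finer resolution 597 WB1P-Myc cells had too few markers for a name. The tumour class then held 1592 WB1P-Myc cells in place of 2186, so the WB1P-Myc side of this comparison was mixed.

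**Figure D1:**
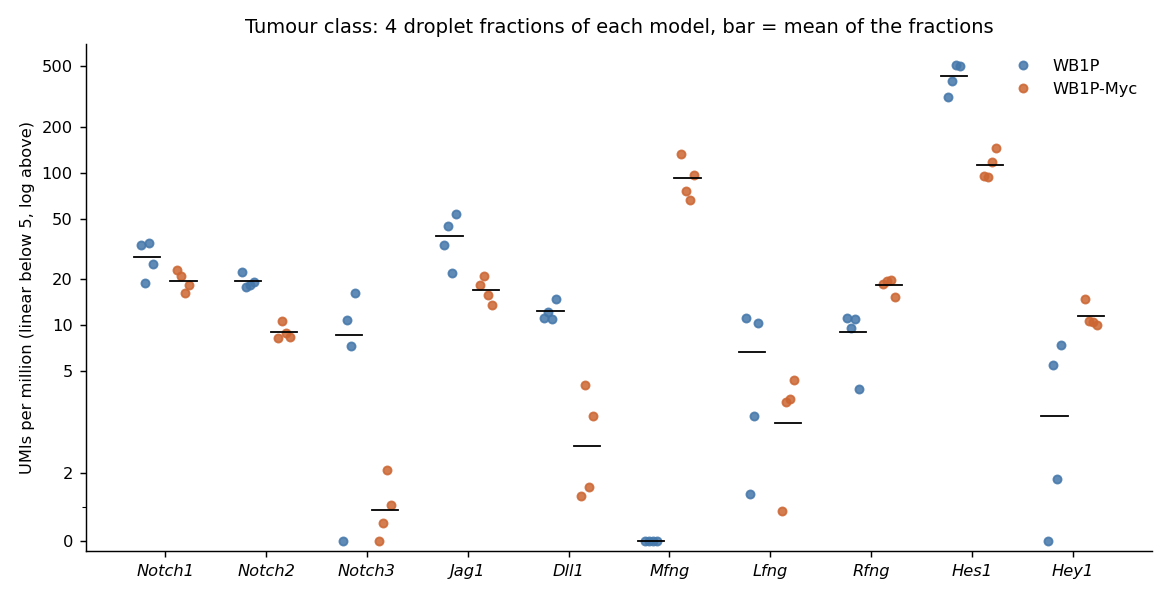
Level of each gene in the tumour class in CPM (vertical axis, linear below 5 and logarithmic above), with a point for each of the 4 fractions of WB1P (blue) and WB1P-Myc (orange) and a bar at their mean. The fractions do not overlap for Mfng, Rfng and Hey1, which were higher in WB1P-Myc, nor for Notch2, Jag1, Dll1 and Hes1, which were lower.

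Notch1 (chr2:26457902-26503822, mm10) encodes the receptor best known from T cell development and vessel sprouting. In the tumour class it was 33.6, 19.1, 34.9 and 25.3 CPM in WB1P fractions 1 to 4, and 23.1, 21.0, 16.2 and 18.4 CPM in those of WB1P-Myc. The fractions overlapped, and the log2 ratio of WB1P-Myc over WB1P was -0.39 [-0.85, 0.09]. Its highest level was in endothelial-like cells, at 149 CPM [67.9, 282] in 37 WB1P cells and 179 CPM [122, 254] in 71 WB1P-Myc cells. All other classes lay between 18.1 and 29.8 CPM with overlapping intervals.

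Notch2 (chr3:98013538-98150367) is a closely related receptor. It was 22.4, 17.7, 18.4 and 19.4 CPM in the WB1P tumour fractions and 8.27, 10.7, 8.91 and 8.42 CPM in those of WB1P-Myc. Every WB1P fraction was above every WB1P-Myc fraction, with a log2 ratio of -1.04 [-1.63, -0.44] that only just passed the 2-fold limit. Without WB1P-Myc fraction 1 the ratio was -0.99 and the call was lost. Notch2 did not separate the non-tumour classes, where it was 25.7 and 16.6 CPM in WB1P and WB1P-Myc fibroblast-like cells and 7.52 and 18.8 CPM in macrophage-like cells, and it had no UMI in endothelial-like cells.

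Notch3 (chr17:32120820-32166896), a receptor known from vascular smooth muscle cells and pericytes, had 23 UMIs in the WB1P and 7 UMIs in the WB1P-Myc tumour class. The WB1P fractions were 0, 10.9, 7.34 and 16.4 CPM and the WB1P-Myc fractions 0, 0.512, 2.10 and 1.05 CPM. They overlapped only through WB1P fraction 1, where none was counted among 60 cells, and the log2 ratio was -3.70 [-5.16, -2.43]. Without that fraction Notch3 met the criteria for lower, at -3.76. In fibroblast-like cells it was 15.4 CPM [7.05, 29.3] in WB1P and 19.7 CPM [11.9, 30.7] in WB1P-Myc, and no UMI was found in 1075 macrophage-like cells.

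Jag1 (chr2:137081451-137116520), a Jagged ligand, was 33.6, 45.0, 22.03 and 53.6 CPM in the WB1P tumour fractions. In WB1P-Myc it was 18.3, 21.0, 15.7 and 13.7 CPM, so the lowest WB1P fraction still lay above the highest of WB1P-Myc. The log2 ratio was -1.26 [-1.66, -0.85], but after every cell was thinned to 600 UMIs it was -0.70, the fractions overlapped and the call was lost. Fibroblast-like cells had the highest levels, 53.1 CPM [36.1, 75.4] in WB1P and 61.1 CPM [46.5, 78.9] in WB1P-Myc, which did not differ beyond their intervals. The next level in the order, 41.2 CPM [32.9, 51.0] in the WB1P tumour class, overlapped both.

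Dll1 (chr17:15367354-15376932), a Delta-like ligand, was 11.2, 12.3, 11.02 and 14.9 CPM in the WB1P tumour fractions against 1.31, 4.61, 1.57 and 3.68 CPM in WB1P-Myc. The 2 sets of fractions did not overlap, and the log2 ratio was -2.22 [-3.11, -1.35] from 26 and 22 UMIs. Outside the tumour class Dll1 was sparse, with 7 UMIs in WB1P-Myc endothelial-like cells (40.4 CPM [16.3, 83.3]) and at most 2 UMIs in any other class.

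Mfng (manic fringe, chr15:78755882-78773516) had 0 UMIs in 2037932 UMIs of the WB1P tumour class, which allows up to 1.47 CPM at a floor of 3 UMIs (the upper end of the Poisson interval is 1.81 CPM). In the WB1P-Myc tumour class it had 766 UMIs, with 134, 75.7, 66.0 and 97.3 CPM in fractions 1 to 4. All 4 WB1P-Myc fractions were therefore far above WB1P, and the pooled level was at least 64.6-fold higher by that floor. The MiSeq tables gave 0 UMIs in 235 WB1P and 110 CPM [93.4, 129] in 615 WB1P-Myc tumour-class cells. Mfng UMIs were found in 10.8% [9.53, 12.2] of WB1P-Myc tumour-class cells (median 2633 UMIs), in 2.91% [1.26, 5.65] of the fibroblast-like cells (median 2718) and in 1.44% [0.69, 2.63] of the macrophage-like cells (median 1492) of the same model. After every cell was thinned to 600 UMIs these shares were 3.39% [2.67, 4.23], 1.09% [0.23, 3.15] and 0.863% [0.32, 1.87], and the share in the WB1P tumour class stayed at 0 of 672 cells. Endothelial-like cells, with 66.0 CPM [17.98, 169] in WB1P and 80.9 CPM [44.2, 136] in WB1P-Myc, did not differ from the WB1P-Myc tumour class beyond their intervals.

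Lfng (lunatic fringe, chr5:140607341-140615545) was low in the tumour class, at 5.40 CPM [2.69, 9.66] in WB1P and 3.35 CPM [2.21, 4.87] in WB1P-Myc. The fractions ran from 1.36 to 11.2 CPM and from 0.870 to 4.74 CPM and overlapped. Its highest pooled levels were in the macrophage-like class, at 49.7 CPM [34.2, 69.7] in WB1P and 36.8 CPM [27.1, 49.0] in WB1P-Myc. With the T or NK-like cells apart they were 49.8 and 39.8 CPM, and the 78 WB1P-Myc T or NK-like cells held 2 Lfng UMIs. Endothelial-like cells, with 33.0 and 28.9 CPM from 2 and 5 UMIs, did not differ from these beyond the intervals.

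Promoter windows of 7 of the 10 genes were matched in RefSeq (GRCm38.p6): Notch1, Notch2, Notch3, Jag1, Dll1, Lfng and Rfng. They were searched on both strands for GTGGGAA, the core bound by RBPJ, and for the E-box CACGTG, which MYC and HES or HEY proteins are known to bind. Only the Lfng window held them, where 6.38% and 7.15% of 32851 windows of the same length did, and there the motifs overlap as CACGTGGGAA, a run found in 35 windows (0.107%). The stretch is shown because it holds both motifs in 1 run, given 5' to 3' on the plus strand with the run in capitals, at chr5:140607179-140607288, 162 to 53 bases before the start of the gene, with the run itself 112 to 103 bases before it.
Lfng promoter: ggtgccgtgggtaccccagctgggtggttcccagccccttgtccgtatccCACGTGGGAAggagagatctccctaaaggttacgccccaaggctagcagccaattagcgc
A match of letters shows no binding.

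Rfng (radical fringe, chr11:120780745-120784251) was 11.2, 9.55, 11.02 and 4.47 CPM in the WB1P tumour fractions and 18.7, 19.4, 19.9 and 15.3 CPM in those of WB1P-Myc. The fractions were apart with a log2 ratio of 1.14 [0.41, 1.96]. Without WB1P fraction 4, its lowest, the ratio was 0.84 and under the 2-fold limit. In the other classes with UMIs it lay between 7.52 and 11.4 CPM, with overlapping intervals.

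Hes1 (chr16:30065357-30067796), a transcriptional repressor that Notch induces and that other signals can also induce, was 314, 399.8, 507 and 504 CPM in the WB1P tumour fractions. The WB1P-Myc fractions were 95.7, 94.2, 118 and 145 CPM, all below the lowest of WB1P, and the log2 ratio was -2.03 [-2.17, -1.90]. It was seen in 42.6% [38.8, 46.4] of WB1P and 22% [20.3, 23.8] of WB1P-Myc tumour-class cells, and in 17.6% and 5.95% after thinning to 600 UMIs, where the log2 ratio was -1.82 but the fractions overlapped. Fibroblast-like cells showed 439 CPM [387, 496] in WB1P and 240.4 CPM [211, 273] in WB1P-Myc, a log2 ratio of -0.87 [-1.13, -0.61] that missed the 2-fold limit. Macrophage-like cells had the lowest levels, at 31.6 CPM [19.6, 48.3] and 49.4 CPM [37.9, 63.2], and Hes1 UMIs occurred in 4.47% and 5.76% of them.

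Hey1 (chr3:8663359-8667038), a related repressor, was 0, 5.46, 1.84 and 7.45 CPM in the WB1P tumour fractions and 14.8, 10.7, 10.5 and 10.0 CPM in those of WB1P-Myc. The fractions did not overlap, with a log2 ratio of 1.25 [0.31, 2.36] from 10 and 94 UMIs, and without WB1P fraction 3 the ratio was 0.95 and the call was lost. Hey1 was far higher in endothelial-like cells, at 116 CPM [46.4, 238] in WB1P and 121 CPM [75.1, 185] in WB1P-Myc. Fibroblast-like and macrophage-like cells of both models had 0 to 2 Hey1 UMIs.

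**Figure D2:**
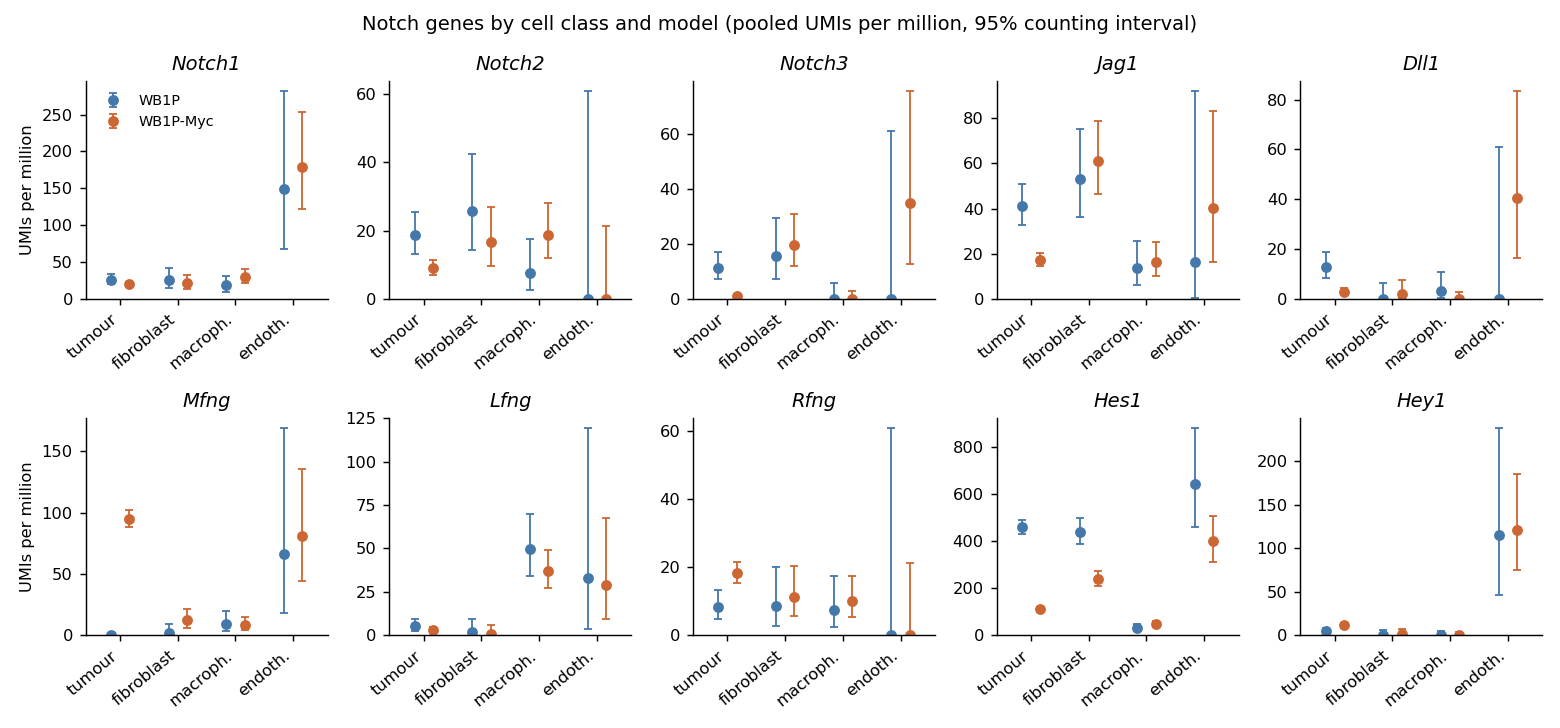
Pooled level of each gene in CPM (vertical axis, a separate linear scale for each gene) in the tumour, fibroblast-like, macrophage-like and endothelial-like cells of WB1P (blue) and WB1P-Myc (orange), with 95% counting intervals. Mfng is high in WB1P-Myc tumour cells and endothelial-like cells, Notch1 and Hey1 in endothelial-like cells, Lfng in macrophage-like and endothelial-like cells, and Hes1 is low in macrophage-like cells.

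Notch3 and Jag1 were unevenly spread within the fibroblast-like cells. When these 493 cells were clustered again, 268 cells led by Acta2 and Tagln, both contractile genes, held 23 of the 28 Notch3 UMIs (24.1 CPM), and 199 cells rich in Dpt and Cd34 held 2 (3.58 CPM). Heyl, a Hey-family repressor, had all 38 of its UMIs in the Acta2 cells. Jag1 was 70.2 and 35.8 CPM and Hes1 371 and 231 CPM in the 2 groups, in the same order, whereas Notch2 was 10.5 and 37.5 CPM. The Acta2 cells also had 682 CPM of Rgs5 and 1246 CPM of summed pericyte markers, against 1.79 and 71.5 CPM in the Dpt cells, and the part of pericytes in the Notch3 level was not tested. The remaining 26 cells held 3 Notch3 UMIs. In endothelial-like cells Notch3 was 0 in WB1P and 34.7 CPM [12.7, 75.4] in WB1P-Myc, where summed pericyte markers were 858 and 1883 CPM.

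In the wider list of 48 pathway genes, 42 could be compared in the tumour class, of which 8 were called higher, 6 lower and 28 neither. The median log2 ratio was -0.12, beside 0.10 over all genes. Leaving out the 10 genes above, 5 of 32 were higher and 2 lower, which is near the 14.4% and 8.7% of all genes, so the calls named next are a description and do not set the list apart. Higher among the ligands were Jag2 (2.45 CPM in WB1P and 9.55 CPM in WB1P-Myc) and Dlk2 (0 and 3.47 CPM), and among the targets Hey2 (1.96 and 9.43 CPM) and Heyl (0.981 and 7.196 CPM). Hes6 (log2 ratio -0.22), a Hes-family gene listed with the targets, and the target Nrarp (-0.46) were not called. In epithelial-like cells alone 4 genes of the list were called higher in place of 8, and Hey1, Hey2 and Heyl were not among them. After thinning to 600 UMIs the counts were 4 higher and 2 lower. The shares of all genes called in these alternatives are not given, so these counts cannot be set against all genes. Of the 8 compared proteases, Psen2, a presenilin subunit of gamma-secretase, was higher (3.93 and 11.8 CPM) and Ncstn, its nicastrin subunit, was lower (33.4 and 12.7 CPM). Rbpj, the DNA-binding partner of the receptor fragment, was 88.8 and 40.7 CPM, a log2 ratio of -1.13 [-1.39, -0.86] with overlapping fractions. Of the other glycosyltransferases in the list, Pofut1 was 9.32 and 9.18 CPM and Poglut1 was 18.6 and 22.8 CPM, and neither was called. None of the 6 compared trafficking genes was called.

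**Figure D3:**
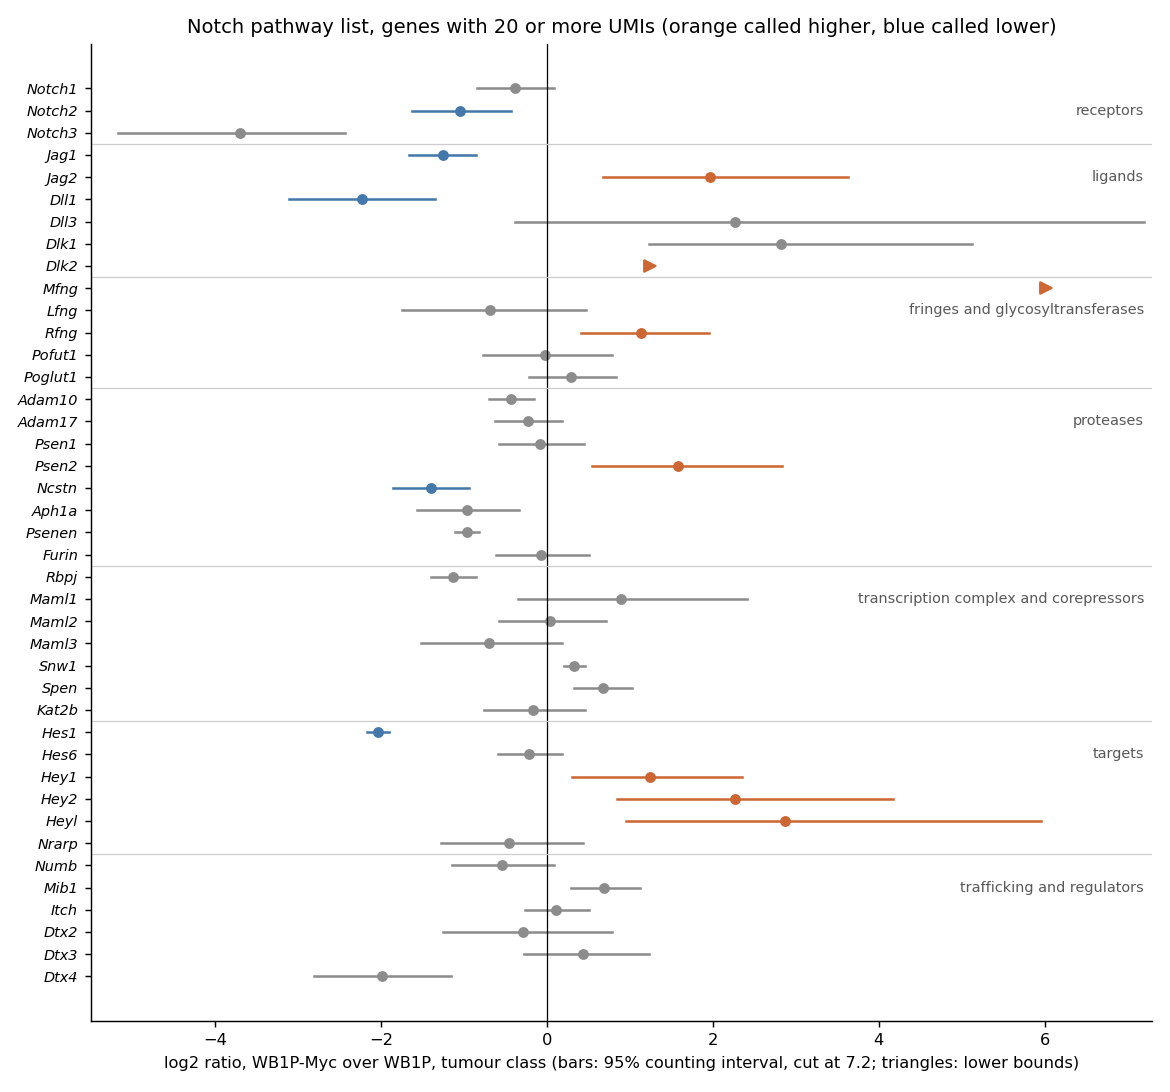
Log2 ratio of WB1P-Myc over WB1P in the tumour class (horizontal axis) for pathway genes that could be compared, grouped by role. Points carry 95% counting intervals, triangles are lower bounds for genes with no WB1P UMI, orange genes were called higher, blue genes lower and grey genes neither.

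In fibroblast-like cells, where 2.58% of 7546 genes were called higher and 0.186% lower, none of 29 comparable pathway genes was called. In macrophage-like cells, with 4.97% of 7960 genes higher and 0.251% lower, 1 of 26 was called, Kat2b, which encodes an acetyltransferase coactivator (12.04 and 30.6 CPM). Both counts were the same without WB1P fraction 1, although the share of all genes called lower was then 1.52% in fibroblast-like and 2% in macrophage-like cells. The Notch genes of vessels were found where the endothelial marker list was high: Dll4 was 132 CPM in WB1P and 150.2 CPM in WB1P-Myc endothelial-like cells, Notch4 was 116 and 63.5 CPM and the target Nrarp was 99.0 and 104 CPM. With 37 and 71 cells, no fraction held more than 23 of them, and WB1P fraction 1 held 1. A gene with no UMI in that cell could not have its WB1P fractions all above those of WB1P-Myc. No pathway gene that could be compared had fractions apart. The share of all genes with fractions apart in this class is not given, so this does not describe the list. Hes1, at 644 and 399 CPM (log2 ratio -0.69 [-1.28, -0.09]), and the protease gene Adam10, at 116 and 323 CPM (1.49 [0.35, 2.86]), differed beyond their counting intervals.

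Mfng was unevenly spread among the WB1P-Myc cells. At a finer resolution, 229 cells held 561 of the 822 Mfng UMIs of WB1P-Myc (68.2%) with 9.65% of all UMIs, a level of 487 CPM [448, 529] with UMIs in 56.3% [49.6, 62.9] of the cells. These cells were 66, 49, 54 and 60 of the cells in fractions 1 to 4, or 5.51% to 7.14% of each fraction, and their Mfng levels were 660, 414, 348 and 470.4 CPM. Mfng led the genes that marked the cluster, before Dusp26 and Tmem213, and it is a readout of the same cells that were clustered although the gene itself was left out. The cluster was picked as the one highest in Mfng and genes near Mfng stayed in the clustering, so this lead was largely fixed. Without genes within 5 Mb of Mfng, 220 of these cells fell in a cluster of 531 (216 CPM), led by Gpx2 before Mfng. At resolution 1.0, 223 fell in a cluster of 271 (419 CPM) led by Mfng. Summed epithelial markers were 1288 CPM and Schwann markers 991 CPM in these cells. Of 14 markers in each list, 14 epithelial and 11 Schwann markers were seen (Foxd3, Ngfr and Gfap were at 0), and 3 and 2 of them were in at least 10% of the cells and at least 2-fold higher than in all other cells. Of the other WB1P-Myc clusters outside the stroma, levels were 69.5 CPM in 597 cells that had too few markers for a name (median 1138 UMIs), 38.7 CPM in 513 Schwann-like cells led by Mag and Cldn11, 24.6 CPM in 318 epithelial-like cells led by Krt17 and 2.83 CPM in 524 cells led by Hapln1 and Acan. The 10 top genes of the last cluster held cartilage genes (Acan and Col2a1) and no marker of the Schwann list, of which 8 were nevertheless in at least 10% of its cells and at least 2-fold higher in it than in all other cells, so it is called by its leading genes. Of the 38.7 CPM, fraction 1 had 74.0 CPM and fractions 2 to 4 had 18.6 to 28.8 CPM. The unnamed Slc38a4 cells had 12.96 CPM of Mfng, together with 289 CPM [262, 318] of Hes1, 25.9 CPM [18.3, 35.6] of Hey1 and 250.4 CPM of Dlk1, a noncanonical Notch ligand.

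Some other Notch genes differed between WB1P-Myc tumour-class cells with 2 or more Mfng UMIs and those with none. These were 118 and 1950 cells, at a median of 5500.5 and 2473 UMIs per cell, and cells with 1 Mfng UMI were left out. Of 9646 genes with at least 50 UMIs, 324 (3.36%) were at least 2-fold higher in the first group and 1783 at least 2-fold lower. A lower gene was thus common and does not set the Notch genes apart. Dll1 was 18.2 CPM (13 UMIs) in the first and 0.881 CPM (6 UMIs) in the second, a log2 ratio of 4.37 [2.87, 6.05]. Dll1, and Lfng below, had under 50 UMIs and were not among those 9646 genes. Jag2 was 19.6 and 8.52 CPM and Hes6, a Hes-family gene, 60.1 and 27.5 CPM. Jag1 was lower at 6.99 and 18.7 CPM, and Heyl had no UMI in the cells with 2 or more Mfng UMIs against 8.23 CPM in those with none. Notch1 (log2 ratio -0.58 [-1.67, 0.34]), Notch2 (-1.77 [-4.85, 0.14]), Lfng (0.86 [-1.14, 2.43]), Rfng (-0.12 [-1.11, 0.74]) and Hey1 (0.12 [-1.06, 1.11]) did not differ beyond their counting intervals. Hes1 was 67.1 and 118 CPM, but it was 106 CPM [70.2, 155] in cells with 2 or 3 Mfng UMIs and 45.5 CPM [28.1, 69.5] in those with 4 or more, and between the 229-cell cluster and the other tumour cells it did not differ beyond its interval (99.8 and 114 CPM). Dll1 was uneven over the fractions, at 12.05, 41.0, 0 and 29.6 CPM in cells with 4 or more Mfng UMIs, and its 3 UMIs in cells with 2 or 3 Mfng UMIs were all in fraction 2. In the MiSeq tables it had 0 UMIs in 18 cells with 2 or more Mfng UMIs and 2 UMIs in 568 cells with none. These cells were the deeper ones, and the part of depth in these ratios was not tested.

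**Figure D4:**
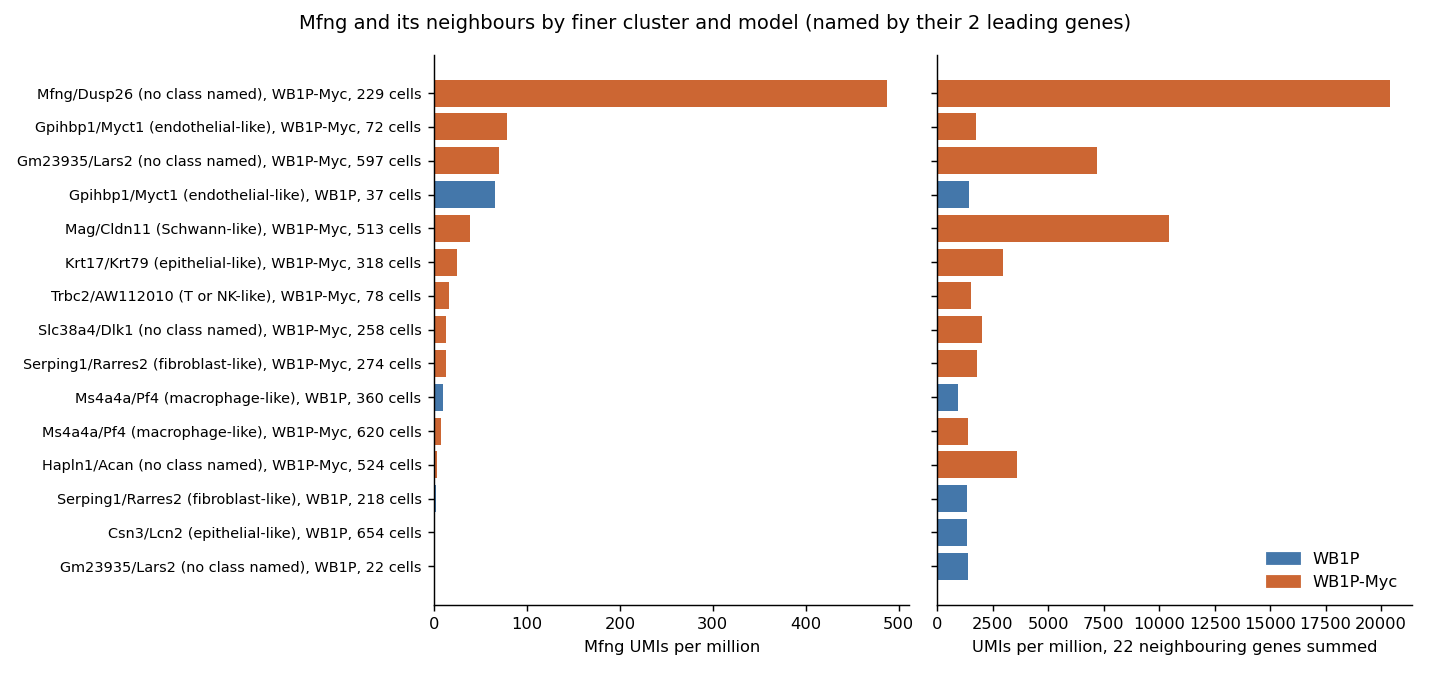
Level of Mfng (left) and the summed level of 22 genes within 1 Mb of it (right), both in CPM on linear axes from 0, in every finer cluster and model with at least 20 cells. Clusters are named by their 2 leading genes, with a class only where a marker of it is among the 10 top genes. The 22 genes were chosen for being higher in cells with Mfng, so the lead of the 229-cell cluster on the right was largely fixed by the choice, and the sum in WB1P tumour cells (1326) lies in the range of the stromal clusters (910 to 1767).

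The genes next to Mfng on chromosome 15 moved with it. Of the 42 other genes within 1 Mb that had at least 50 UMIs, 22 were at least 2-fold higher in the cells with 2 or more Mfng UMIs, or 52.4%, where 3.36% of 9646 genes were. Of these 22 genes, 21 were above 0 in each of the 4 fractions. Measured from the start of Mfng, they ran from Myh9 at -0.995 Mb to Tmem184b at 0.605 Mb (chr15:77760585-79403303), with a median log2 ratio of 1.74. They were chosen by their ratio over the same 4 fractions pooled, so both the signs by fraction and this median were largely fixed by the choice. Over all 42 genes the median log2 ratio was 1.20, beside -0.14 over all 9646 genes. The steepest was Gcat, which encodes an enzyme of glycine and threonine metabolism. It was 175 CPM in cells with no Mfng UMI and 1890 CPM in those with 2 or more. Gcat was also 629 CPM in epithelial-like and 141 CPM in Schwann-like WB1P-Myc cells, and the part of cell type was not tested. The abundant genes of the stretch were Polr2f, an RNA polymerase subunit, Eif3d and Eif3l, subunits of a translation initiation factor, and Txn2, the mitochondrial thioredoxin, and they were 3.72 to 4.45 times higher. Polr2f was 1299, 2121, 4054 and 6529 CPM in cells with 0, 1, 2 or 3, and 4 or more Mfng UMIs. Other genes within 1 Mb were not 2-fold higher, among them Sox10 (204 and 228 CPM), Maff (107 and 99.2 CPM) and Csnk1e (78.3 and 71.3 CPM), and 4 of the 42 were at least 2-fold lower, beside 1783 of all 9646 genes. Sox10, a marker of the Schwann list, was 250 CPM in Schwann-like and 142 CPM in epithelial-like WB1P-Myc cells. In the MiSeq data it was 143 and 300 CPM, a log2 ratio of 1.07 [0.37, 1.70]. Between the models it was 57.9 CPM in the WB1P and 203 CPM in the WB1P-Myc tumour class. Beyond 1 Mb, 1 of 16 genes at 1 to 2 Mb, 1 of 40 at 2 to 3 Mb and 6 of 276 on the rest of the chromosome reached 2-fold.

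**Figure D5:**
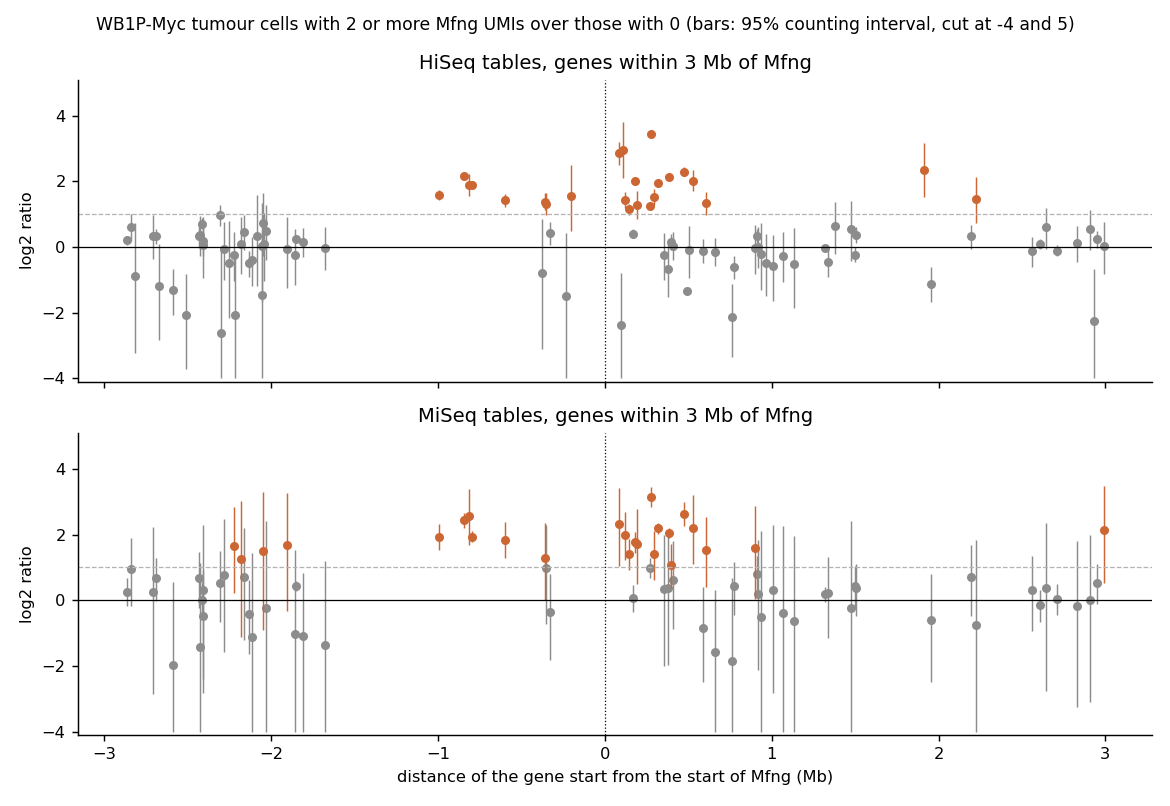
Log2 ratio of WB1P-Myc tumour-class cells with 2 or more Mfng UMIs over those with none (vertical axis) for genes within 3 Mb of Mfng, by distance of their start from the start of Mfng in Mb (horizontal axis), with 95% counting intervals, in the HiSeq (top) and MiSeq (bottom) tables. Genes at least 2-fold higher are orange, and in the HiSeq tables most of them lie between -0.995 and 0.605 Mb.

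In the MiSeq tables, 18 cells had 2 or more Mfng UMIs and 568 had none. Of the 22 genes, 20 had enough UMIs there, all 20 were above 0 and 18 were at least 2-fold higher, with a median log2 ratio of 1.94, where 9.92% of 6212 genes were. These genes were chosen for being 2-fold higher in the HiSeq tables. Over all genes within 1 Mb, whatever their HiSeq value, 20 of 34 reached 2-fold in the MiSeq tables. Both sets of tables are labelled as the same fractions, so they come from the same tumours.

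The same stretch also differed between the models without any choice of cells by Mfng. In the tumour class, 30 of 48 comparable genes within 1 Mb of Mfng were called higher in WB1P-Myc, 62.5% beside the 14.4% of all genes, with a median log2 ratio of 2.08. At 1 to 3 Mb this held for 9 of 71 genes (12.7%) and on the rest of chromosome 15 for 56 of 359 (15.6%). Polr2f was 157, 247, 228 and 212 CPM in the WB1P tumour fractions and 1911, 1606, 1499.9 and 1912 CPM in those of WB1P-Myc. The 22 genes above were chosen for being higher in WB1P-Myc cells with Mfng, so that a higher sum in the tumour class of that model, and most of all in its Mfng-rich cells, was largely fixed by the choice. Their summed level was 1326 CPM in the WB1P epithelial-like cells, 910 CPM in WB1P and 1380 CPM in WB1P-Myc macrophage-like cells, and 1327 and 1767 CPM in fibroblast-like cells. In the other WB1P-Myc clusters it was 20393 CPM in the 229 Mfng-rich cells, 10450 CPM in the Mag cells, 7198 CPM in the 597 unnamed cells, 3588 CPM in the Hapln1 cells, 2935 CPM in the Krt17 cells and 1996 CPM in the Slc38a4 cells. The Mag cells were second in the neighbours, with 38.7 CPM of Mfng. In the stroma, 6 of 25 genes within 1 Mb were called higher in fibroblast-like and 5 of 32 in macrophage-like cells of WB1P-Myc, beside 2.58% and 4.97% of all genes. At 1 to 3 Mb the counts were 0 of 34 and 5 of 41, so in macrophage-like cells the share within 1 Mb (15.6%) was near that farther out (12.2%). Polr2f was 108 and 239 CPM in WB1P and WB1P-Myc fibroblast-like cells, against 226 and 1740.1 CPM in the tumour class. Markers of the tumour class were also counted in the stroma. In WB1P and WB1P-Myc fibroblast-like cells Schwann markers summed to 142 and 309 CPM and epithelial markers to 262 and 136 CPM. In macrophage-like cells these sums were 67.7 and 253 CPM, and 318 and 196 CPM. The part of tumour RNA in the stromal counts was not tested. DNA copy number was not measured in these data.

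By the pattern over the 9 pools of class and model with at least 20 cells, the 5 genes most like Mfng were Acly, Rrp12, Brd1, Ago1 and Vps53 (Pearson r of log2(CPM + 10) from 0.97 to 0.89, over genes with at least 50 UMIs). Those most like Notch3 were Tril, Kctd10, Pls3, Mcc and Nox4 (0.99 to 0.95), and those most like Hey1 were Egfl7, Zfp346, Calr3, Spns2 and Wscd1 (1.00 to 0.98). The pools share libraries and differ in depth, so these values describe likeness only. Over 15 pools of finer clusters, Ago1 remained in the list for Mfng, Tril in that for Notch3, and Egfl7 and Calr3 in that for Hey1.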

How the data were processed

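End-stage tumours of WB1P and WB1P-Myc mice were profiled by Drop-seq, with 4 droplet fractions of 1 sample per model, each with a HiSeq and a MiSeq table. The authors aligned the reads and, with dropseq-tools, deposited UMI counts per gene for 1000 barcodes in each of the 16 tables; the labels name mm10 and Scanpy. The 8 HiSeq tables were used, and the MiSeq tables as an alternative. Genes in at least 3 cells and barcodes with 450 to 4000 genes and under 20% mitochondrial UMIs were kept, as in the study's methods (the loading minimum was 200 genes). For clustering only, each cell was brought to 10000 UMIs on a log scale, and 30 components, 20 neighbours and Leiden resolution 0.3 were used (0.6 for finer clusters), taking the best of 100 seeded starts, with the Notch list left out. No doublet caller was run, and the 4000-gene limit was the only guard. A cluster was named from fixed markers where at least 3 of them were detected in at least 10% of its cells and at least 2-fold higher there. For fibroblast-like cells this was repeated with 40 components.

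UMIs were pooled by class, model and fraction. Each model is 1 sample, so no test was made and no p-value is given. A count of 0 was set to 3 UMIs over the model to bound a ratio. Named genes were the 10 members whatever their values, pathway genes with 20 UMIs, and the 5 genes most like Mfng, Notch3 and Hey1. The counts over the pathway list include 1 gene whose own values are not reported here, and Dtx1 did not pass the filter on genes. Genes near Mfng were chosen after their values were seen. The members and lists were chosen with earlier results of these data known. The ratio script was tested on simulated counts. Scanpy 1.11.5, igraph 0.11.9, scipy 1.17.1, edgeR 4.0.16 and DESeq2 1.42.0 (the last 2 for scaling factors only) were used.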

Additional observations from a re-analysis of the deposited data

Results flagged for a closer look

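In 40 sets of 4 fractions with at least 20 cells in each, 5 had a fraction far from the other 3 by Dixon's ratio, used here to screen and not as a test. Chance would flag about 1 in 20 sets of continuous values, which sparse counts are not. In the WB1P-Myc tumour class, Lfng was 0.870 CPM (2 UMIs) in fraction 1 against 4.09 to 4.74 CPM, and Hey1 was 14.8 CPM (34 UMIs) in fraction 1 against 10.0 to 10.7 CPM. The other 3 rest on 1 or 2 UMIs, and there the ratio is 1 whatever the count because the remaining fractions are at 0: Dll1 at 8.97 CPM in fraction 1 and Lfng at 3.97 CPM in fraction 3 of WB1P-Myc fibroblast-like cells, and Hey1 at 2.95 CPM in fraction 2 of WB1P-Myc macrophage-like cells.

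The difference between tumour-class and macrophage-like cells in Mfng had opposite signs in the 2 models, at a mean over fractions of -8.81 CPM in WB1P (3 fractions, -16.8 to -4.104) and 84.5 CPM in WB1P-Myc (4 fractions, 56.6 to 124). The same held for tumour-class minus fibroblast-like cells in Hes1, at 30.5 CPM in WB1P (5.39 to 53.3) and -126 CPM in WB1P-Myc (-157 to -66.5). Neither difference between the models was tested. The WB1P value for Mfng rests on 6 UMIs in 380 macrophage-like cells (9.03 CPM [3.31, 19.7]) and 0 in the tumour class.

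Barcodes above the limit of 4000 genes, which were left out of the comparisons except under the alternative with no maximum of genes, also held Mfng: 48.7 CPM (218 UMIs in 134 barcodes) in WB1P-Myc, against 1.88 CPM (3 UMIs in 40 barcodes) in WB1P.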

How the results depend on the processing

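Of 307 values recomputed over 27 alternatives, 42 moved by more than the spread between fractions (counts by more than 1.5 times) and none of the called values changed sign. The number of pathway genes called higher in the tumour class, 8, was 4 in the MiSeq tables, 4 after thinning to 600 UMIs, 5 after subtraction of 10% free RNA and 4 in epithelial-like clusters only, and the number called lower, 6, was 2 after thinning. Over all alternatives the counts ran from 4 to 10 higher, with 10 when all genes or only the most variable genes were clustered, at a minimum of 200 genes and with the unnamed cluster in the class, and from 2 to 8 lower. Leaving out each fraction in turn gave 6 to 8 higher, 4 to 8 lower and 79.7 to 104 CPM of Mfng in the WB1P-Myc tumour class. The shares of all genes called in the tumour class under these alternatives are not given. A change in these counts can therefore not be told apart from a change in the calls over all genes. Mfng was 192 CPM in epithelial-like clusters only and 82.4 CPM with the unnamed cluster in the class. Of 23 alternatives that refit the members, the call for Mfng was kept in 23, Hes1 and Jag1 in 22, Dll1 in 21, Hey1 and Rfng in 19 and Notch2 in 14. Among the 9 that ended its call, Notch2 missed 2-fold under TMM (-0.96) and DESeq2 scaling (-0.99), without WB1P-Myc fraction 1 (-0.99) and in epithelial-like clusters only (-0.62). The WB1P tumour class had 0 Mfng UMIs in every alternative, and the lower bound of the log2 ratio ran from 3.33 (thinned) to 7.03 (epithelial-like clusters only). After thinning, the fractions overlapped for Hes1 (-1.82), Jag1 (-0.70) and Hey1 (1.21). The scalings shifted all log2 ratios by 0.08 (TMM) and 0.05 (DESeq2). Without genes within 5 Mb of Mfng in the clustering, 220 of the 229 Mfng-rich cells fell in a cluster of 531 (216 CPM) and, at resolution 1.0, 223 in a cluster of 271 (419 CPM). The settings with the unnamed cluster, with epithelial-like clusters only and about genes near Mfng were chosen after seeing the data, as were the finer pools for likeness, the fibroblast-like subclusters and the stromal counts without WB1P fraction 1. Depth limits all classes: in the tumour class 42 of 48 pathway genes could be compared and thinning ended calls, and there were 37 and 71 endothelial-like cells. No paired analysis was possible because each model is 1 sample and no test was made.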
